A study of Sus scrofa with 9 samples.

Results

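miR-151, miR-28 and miR-708 are small RNAs of one family of related hairpins. In these data they were read in small RNA libraries of the pig, made from MII oocytes, PN embryos and sperm. The members were chosen by name from the deposited table: every listed miR-151, miR-28 or miR-708, whatever its species prefix, arm or suffix. The family itself was selected on results of these data that were already known, among them its levels in the 3 groups. The rule found 19 rows that carry 14 of the 1313 names in the table, of which 9 are miR-151 names, 3 are miR-28 names and 2 are miR-708 names.

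MII oocytes are unfertilized eggs arrested in the second meiotic division. PN embryos are fertilized 1-cell eggs in which the maternal and paternal pronuclei have not yet joined. Each group had 3 libraries, all labelled as untreated, and no genotype or modified allele was given for any of them. Per the methods of the study, oocytes of postpubertal gilts were matured in vitro and freed of cumulus cells, and embryos came from in vitro fertilization. The sequenced sperm was fresh and purified, from Large White boars of 2 to 3 years, while the account of the fertilization names Landrace boars of the same age. The RNA of oocytes and embryos came from large pools. It was not given whether the 3 libraries of a group came from separate pools or boars, so their spread may be technical.

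A miRNA hairpin is cut into a short duplex whose strands are called the 5p and 3p arm. One arm, or either, is loaded into an Argonaute protein and guides it to mRNAs that pair with the seed near its start. The 5p arms of miR-28 and miR-708 share a seed, and the hairpins of miR-28 and miR-151 are known to have arisen from an ancient LINE repeat. All 3 hairpins are carried by protein-coding genes. In the RefSeq table for Sscrofa11.1, the pig build that the submitters' processing notes also name, MIR151 lies at chr4:2849041-2849120, within the span of PTK2, the gene of focal adhesion kinase (chr4:2656606-2896060). MIR28 lies at chr13:126282167-126282252, within LPP, which encodes a protein of cell adhesion sites (chr13:125782373-126478927). MIR708 lies at chr9:13780171-13780250, within TENM4, which encodes a teneurin of the cell surface (chr9:13040615-13826957). In human these hairpins sit in introns of the same genes.

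Levels are given as CPM, the count of a name divided by the total of its library and scaled to 1000000 counts. CPM is a share of the small RNA listed in a library and gives no amount per cell. A rise of a name and a fall of the other names cannot be told apart in it. The MII oocyte libraries held 289183 to 381674 counts, the PN embryo libraries 422630 to 771001 and the sperm libraries 1640492 to 2455102, so depth and group cannot be told apart. Among the 6014 values above 0, the value 5 occurred 435 times, values below 5 occurred 314 times and the value 1 occurred 0 times. A listed 0 is therefore read here as up to 5 counts in a library, which is 13.1 to 17.3 CPM in MII oocytes, 6.49 to 11.8 CPM in PN embryos and 2.04 to 3.05 CPM in sperm. These limits rest on the listing of low counts alone. They do not allow for counting error or for differences between libraries.

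The sperm libraries carried the markers of their label, and the oocyte and embryo libraries carried few of the markers listed for theirs. The summed level of miR-34b, miR-34c, miR-449a and miR-449b, known from testis and sperm, lay between 151499 and 153743 CPM in sperm and between 2036 and 2455 CPM in the other libraries. miR-371, a miRNA of eggs and early embryos, was listed at 0 in sperm and at 1089 to 1286 CPM in MII oocytes. Of the other 3 markers listed with it, miR-372 and miR-373 were at 0 in every library, and miR-302 was above 0 in PN embryos alone. The 6 blood cell markers summed to 166 to 314 CPM in the oocyte libraries, where miR-223 was at 0, to 837 to 875 CPM in the embryo libraries, where miR-150 was at 0, and to 268 to 380 CPM in sperm, where all 6 were above 0. For the 5 miRNAs listed as markers of ovarian follicle cells, all above 0 in each group, the sum was 1414 to 1949 CPM in oocytes, 1943 to 2111 CPM in embryos and 4350 to 4481 CPM in sperm. For the 7 epithelial miRNAs it was between 453356 and 494621 CPM in the oocyte and embryo libraries, where miR-429 was at 0, and between 11722 and 12447 CPM in sperm, where all 7 were above 0. These sums do not by themselves show that blood, follicle or epithelial cells were present, and the follicle cell list was highest in sperm. Whether such cells were present, and their part in the levels of the family, was not tested.

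The family took 0.430% to 0.460% of the counts of MII oocytes, 0.512% to 0.554% of those of PN embryos and 3.88% to 4.23% of those of sperm. Its 3 hairpins were distributed in different ways. miR-151 led in all 9 libraries, miR-28 was a minor component of oocytes and embryos and the second component of sperm, and miR-708 was listed in oocytes and embryos and at 0 in sperm. Of the family counts, miR-151 held on average 84.7% in MII oocytes, 85.9% in PN embryos and 65.3% in sperm. miR-28 held 6.54%, 5.42% and 34.7%, and miR-708 held 8.80%, 8.66% and 0%.

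**Figure D1:**
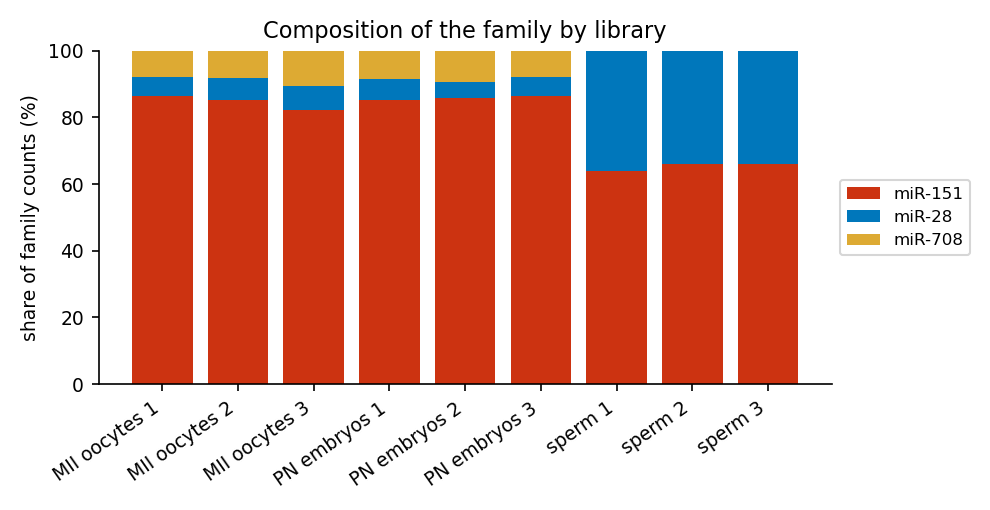
Share of the family's counts (%, bars stacked to the whole) that fell to miR-151, miR-28 and miR-708 in each of the 9 libraries. miR-708 is present in the 6 oocyte and embryo bars and absent from the 3 sperm bars, where miR-28 takes 34.7% on average.

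miR-151-5p was the most abundant member in each group. As ssc-miR-151-5p it was listed at 3270, 2917 and 2690 CPM in MII oocytes, at 3668, 3928 and 3709 CPM in PN embryos and at 21637, 24507 and 24390 CPM in sperm. The 3 groups did not overlap, and sperm stood far above the other groups. By mean CPM it ranked 35 among all names in MII oocytes, 27 in PN embryos and 13 in sperm.

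The opposite arm, ssc-miR-151-3p_R-1, was listed at 715, 745 and 899 CPM in MII oocytes, at 613, 700 and 712 CPM in PN embryos and at 2865, 3048 and 2962 CPM in sperm. Sperm was again the highest group, by a smaller margin than for the 5p arm. The PN embryo libraries lay just below the MII oocyte libraries, with 712 against 715 CPM at the nearest point.

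miR-28 is best known for its roles in blood cells, where it represses the thrombopoietin receptor and acts in B cells. ssc-miR-28-5p_R-1 was listed at 157, 150 and 111 CPM in MII oocytes, at 166, 163 and 156 CPM in PN embryos and at 2018, 2359 and 2353 CPM in sperm. ssc-miR-28-3p_R+1 was at 105, 137 and 207 CPM in MII oocytes, at 147, 89.2 and 139 CPM in PN embryos and at 11957, 11986 and 11970 CPM in sperm. For either arm the oocyte and embryo libraries overlapped and every sperm library was higher. The 3p arm moved from rank 182 in MII oocytes and 208 in PN embryos to rank 22 in sperm.

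miR-708 had the reverse distribution. Elsewhere it is known to be induced together with its host gene under stress of the endoplasmic reticulum. ssc-miR-708-5p was listed at 356, 351 and 439 CPM in MII oocytes, at 438, 526 and 416 CPM in PN embryos and at 0 in all 3 sperm libraries. In counts these were 136, 105 and 127 in MII oocytes and 185, 366 and 321 in PN embryos, with 0 in sperm, whose libraries were the deepest of the 9. The oocyte and embryo libraries overlapped. Its 3p arm, ssc-miR-708-3p_R-1, was listed in 1 library alone, with 6 counts in MII oocyte library 3.

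**Figure D2:**
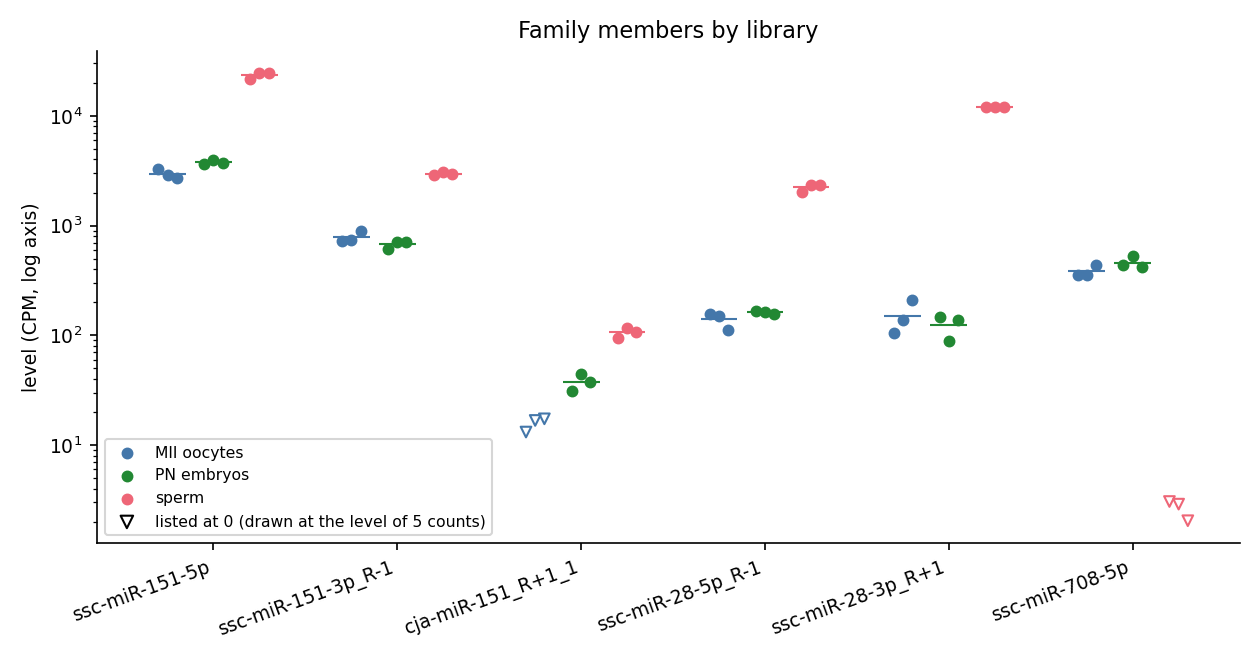
Level (CPM, log axis) of 6 member names in each library, 3 points per group, with a line at the group mean. Open triangles mark a listed 0, drawn at the level of 5 counts. The miR-151 and miR-28 names are highest in sperm, ssc-miR-708-5p is listed at 0 there, and cja-miR-151_R+1_1 is listed at 0 in MII oocytes.

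The order of the members changed with the group. In MII oocytes it ran from miR-151-5p (2959 ± 292 CPM) through miR-151-3p (787 ± 98.6) and miR-708-5p (382 ± 49.5) to miR-28-3p (150 ± 52.5) and miR-28-5p (139 ± 25.1; SD, n = 3 each), and the last pair overlapped. PN embryos kept the first 3 places, at 3768 ± 140, 675 ± 54.2 and 460 ± 58.4 CPM, and miR-28-5p (161 ± 5.11) lay above miR-28-3p (125 ± 31.2; SD, n = 3 each) with no overlap. In sperm miR-151-5p (23511 ± 1625 CPM) was followed by miR-28-3p (11971 ± 14.1), miR-151-3p (2958 ± 91.4) and miR-28-5p (2243 ± 195; SD, n = 3 each), and no neighbours in this order overlapped. The SD of miR-28-3p in sperm is smaller than counting error alone would give.

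The remaining 8 names carried the prefixes of other species and no arm, and were low. cja-miR-151_R+1_1 and cja-miR-151_R+1_2 stood in 3 rows with the same counts. It was not given whether such rows repeat the same reads or divide them. Values of the cja-miR-151 reads are given here per row. If the rows divide the reads, 1 row holds only a part of them. Each row held 0 counts in the 3 MII oocyte libraries, 13, 31 and 29 in PN embryos (30.8, 44.6 and 37.6 CPM) and 156, 203 and 262 in sperm (95.1, 117 and 107 CPM). mdo-miR-151 reached 21, 38 and 29 counts, mdo-miR-151_R+1 reached 6, 7 and 26 counts and hsa-miR-151b_R+5 reached 12, 14 and 15 counts in sperm, and all 3 were listed at 0 in the other 6 libraries. These values sum the rows of a repeated name. hsa-miR-151b_R+3, mdo-miR-151_R-2 and oga-miR-28b_R+2 stayed below 10 counts in every library, as did ssc-miR-708-3p_R-1.

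Groups were compared in an edgeR quasi-likelihood fit of all 587 names that passed a filter on low counts. A name was called where q, the p-value after Benjamini-Hochberg adjustment, was under 0.05 and the groups differed by 1 or more on the log2 scale. Of the 14 members, 7 passed the filter and 7 did not. Because the levels were known when the family was chosen, the calls are a description and are not evidence for a pattern. The filter favours names that are high in at least 1 group.

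In PN embryos against MII oocytes, 2 of the 7 members were called higher and 0 lower, where 11.2% of all names tested were called higher and 1.70% lower. Both calls were the cja-miR-151_R+1 names, whose rows hold the same counts. Against the limit of 5 counts per library, 1 row of these reads was at least 2.40-fold higher in PN embryos. The 5 pig names of the family that were tested were not called. Their log2 fold changes were 0.28 (95% interval 0.10 to 0.45) for miR-151-5p, -0.28 (-0.52 to -0.04) for miR-151-3p, 0.12 (-0.26 to 0.50) for miR-28-5p, -0.32 (-0.90 to 0.26) for miR-28-3p and 0.20 (-0.15 to 0.56) for miR-708-5p. Each of these intervals lies inside a 2-fold change in either direction.

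The absence of the cja-miR-151 reads from MII oocytes was set beside the depth there. Per row they amounted to 0.839%, 1.14% and 1.01% of the ssc-miR-151-5p counts in PN embryos and to 0.439%, 0.478% and 0.438% in sperm. At the mean proportion of PN embryos, MII oocyte libraries 1, 2 and 3 would have held 12.4, 8.69 and 7.75 counts per row. Set against ssc-miR-151-3p_R-1 in the same way, they would have held 15.2, 12.4 and 14.4 counts. All 6 of these numbers exceed the 5 counts that a listed 0 may stand for. Counting error around numbers this low can still give 5 or fewer, and whether depth accounts for the listed 0 was not tested. At the mean proportion of sperm to the 5p arm they would have held 5.64, 3.94 and 3.51 counts, of which 1 exceeds it. The cja-miR-151 names carry no arm, so neither proportion is the given one.

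In sperm against MII oocytes, 6 of the 7 members were called higher and 1 lower, where 42.2% of all names tested were called higher and 40.7% lower. The log2 fold change was 3.05 ± 0.08 (SE) for miR-151-5p, 1.98 ± 0.10 for miR-151-3p, 4.06 ± 0.13 for miR-28-5p and 6.41 ± 0.18 for miR-28-3p, that is 8.28-fold, 3.93-fold, 16.6-fold and 85.2-fold higher in sperm. With all libraries thinned to equal depth these log2 fold changes were 2.42, 1.29, 3.41 and 5.71, and the median of all names moved from 0 to -0.56. In the thinned fits the filter and the scaling of libraries were set anew, so such moves do not give the effect of depth alone. Scaled by library totals alone at full depth, the 4 log2 fold changes were 2.99, 1.92, 3.99 and 6.36. The called lower name was miR-708-5p, which was at least 144-fold lower in sperm against the limit of 5 counts per library. Per row, the cja-miR-151 reads were at least 6.77-fold higher.

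In sperm against PN embryos, the same 6 names were called higher and miR-708-5p lower, where 38.8% of all names tested were called higher and 47.4% lower. The log2 fold change was 2.77 ± 0.08 (SE) for miR-151-5p, 2.25 ± 0.10 for miR-151-3p, 3.94 ± 0.12 for miR-28-5p, 6.74 ± 0.18 for miR-28-3p and 1.60 ± 0.21 for cja-miR-151_R+1_1. miR-708-5p was at least 173-fold lower in sperm. At equal depth these log2 fold changes were 2.17, 1.62, 3.38, 6.12 and 0.93, the last no longer called, and the median of all names moved from -0.52 to -1.12. There cja-miR-151_R+1_2, whose rows hold the same counts, was at 1.03 and stayed called. This contrast and the one before it share the sperm libraries.

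**Figure D3:**
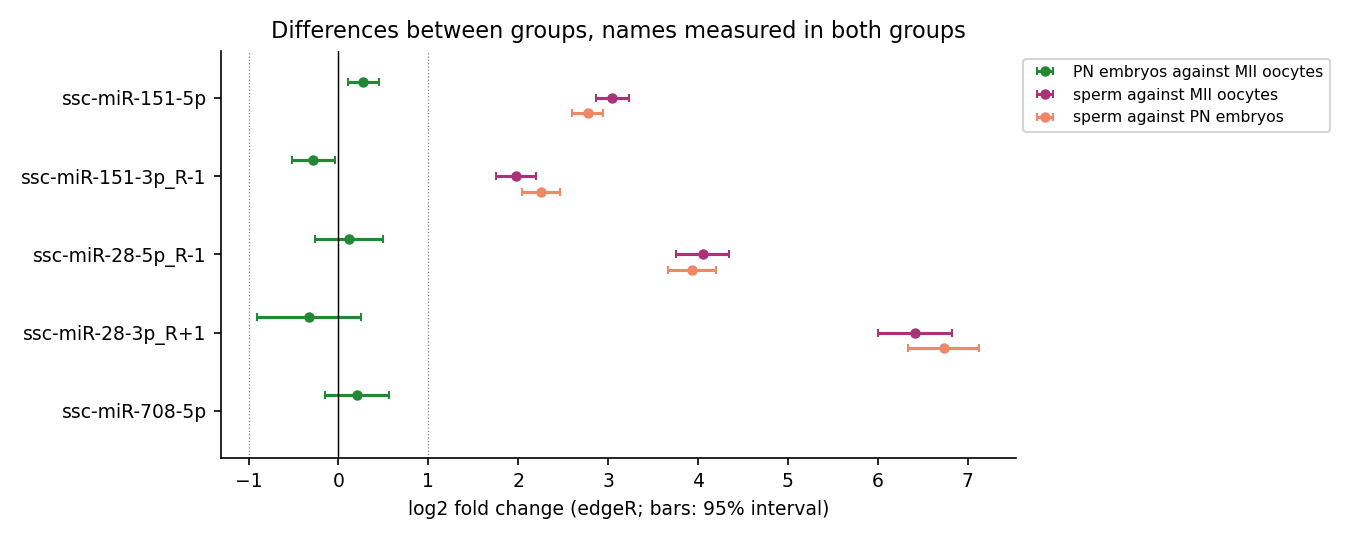
log2 fold change (edgeR, with the 95% interval) of 5 pig members in the 3 contrasts, drawn where a name was measured in both groups. Dotted lines mark a log2 fold change of -1 and 1. PN embryos against MII oocytes stay between the dotted lines, and the miR-28-3p points of sperm lie farthest right, at 6.41 and 6.74.

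The arms of a hairpin did not differ between groups by the same factor, which a share within each library can show without regard to depth or to the level of the hairpin. This share is the 5p counts among the 5p and 3p counts. It comes from the same counts as the levels, which were known when the family was chosen. Tests of this share are therefore a description too. For miR-28 it was 60.0%, 52.3% and 34.8% in MII oocytes, where it rested on 100, 86 and 92 counts (95% Wilson intervals 50.2% to 69.1%, 41.9% to 62.6% and 25.8% to 44.9%). It was 53.0%, 64.6% and 52.9% in PN embryos, on 132 to 227 counts (95% Wilson intervals 44.6% to 61.3%, 57.2% to 71.3% and 46.4% to 59.3%). It was 14.4%, 16.4% and 16.4% in sperm, on 22927 to 35164 counts.

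Thus either arm of miR-28 could lead in oocytes, the 5p arm led in each PN embryo library and the 3p arm led in each sperm library. The mean share was 49.0 ± 12.9% in MII oocytes, 56.8 ± 6.71% in PN embryos and 15.8 ± 1.15% in sperm (SD, n = 3 each). Sperm did not overlap with either other group. The difference was -33.3 percentage points from MII oocytes and -41.1 points from PN embryos, each with a two-sided exact permutation p of 0.1, the smallest that 3 libraries against 3 allow. Between PN embryos and MII oocytes it was 7.79 points with overlap (exact permutation p = 0.4).

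For miR-151 the 5p arm led in every library. Its share was 82.1%, 79.7% and 75.0% in MII oocytes, 85.7%, 84.9% and 83.9% in PN embryos and 88.3%, 88.9% and 89.2% in sperm. The 3 groups did not overlap. The mean share was 78.9 ± 3.61% in MII oocytes, 84.8 ± 0.895% in PN embryos and 88.8 ± 0.447% in sperm (SD, n = 3 each), and the exact permutation p was 0.1 for each of the 3 differences (5.93, 9.92 and 3.99 points). So the arm that took the larger part in sperm was the 5p arm for miR-151 and the 3p arm for miR-28. For miR-708 the share was 95.5% to 100% in MII oocytes and 100% in PN embryos, and it was not computed in sperm (exact permutation p = 1). Over the 7 shares tested, an exact permutation p of 0.1 became 0.14 after Benjamini-Hochberg adjustment, so 0 of them passed 0.05 by this test.

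**Figure D4:**
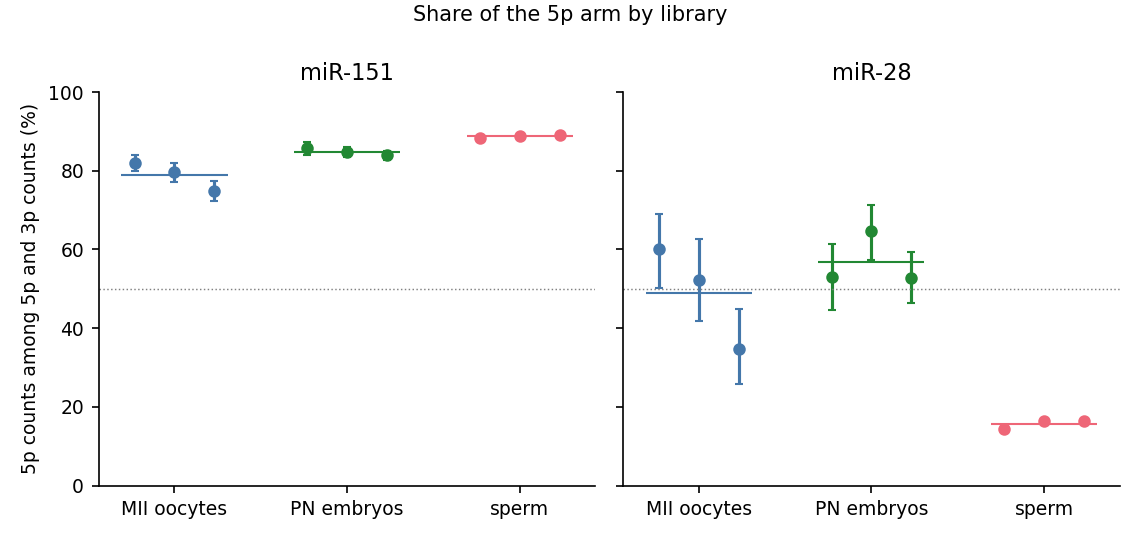
5p counts among the 5p and 3p counts (%) of miR-151 and miR-28 in each library, with 95% Wilson intervals for counting error and a line at the group mean. The dotted line marks equal arms. miR-28 lies between 14.4% and 16.4% in sperm, and miR-151 lies between 75.0% and 89.2% over all 9 libraries.

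To set these shares beside those of other hairpins, log2 of 5p over 3p counts was compared with limma over the 32 pig hairpins that had both arms listed and at least 20 counts over both arms in each library. This test was added after the data were seen. For miR-28 the log2 ratio was lower in sperm by -2.36 ± 0.39 (SE) than in MII oocytes (q = 0.0023) and by -2.82 ± 0.39 than in PN embryos (q = 0.00125). For miR-151 it was higher in sperm by 1.08 ± 0.19 than in MII oocytes (q = 0.00258) and by 0.51 ± 0.19 than in PN embryos (q = 0.0504), and higher in PN embryos than in MII oocytes by 0.57 ± 0.19 (q = 0.0983). For miR-28 in PN embryos against MII oocytes the difference was 0.46 ± 0.39 (q = 0.443). The share of hairpins with q under 0.05 was 59.4% in sperm against MII oocytes and 56.2% in sperm against PN embryos. It was 12.5% in PN embryos against MII oocytes. By this test, arm ratios that differed between sperm and another group were thus common. However, 0.5 counts were added to each arm, so a ratio with an arm near 0 depends on depth. For mir-30b it was higher in sperm than in MII oocytes by 1.47 (limma q = 0.0023), while the mean 5p share went from 100% to 99.9%. Depth therefore enters these shares of hairpins and the ranks of log2 ratios below.

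By the size of the log2 ratio difference, miR-28 ranked 10 of 32 in sperm against MII oocytes and 8 of 32 in sperm against PN embryos, and miR-151 ranked 20 and 28. On the scale of percentage points, miR-28 ranked 1 of 32 in both contrasts. In sperm against PN embryos it kept this rank when any 1 library was left out. In sperm against MII oocytes it ranked 2, behind mir-1839, without MII oocyte library 1 (-27.8 against -31.4 points) and without sperm library 3 (-33.6 against -34.2 points). Its mean share in MII oocytes lay close to an even 50%, where a given change of the ratio moves the share most. From PN embryos to sperm, miR-28 was the 1 hairpin of 32 whose mean share crossed 50%, and from MII oocytes to sperm 0 of 32 crossed it, since miR-28 was already just below, at 49.0%. Without MII oocyte library 3 miR-28 crossed it there too, as 1 of 32. In PN embryos the share of miR-28 (56.8 ± 6.71%, SD, n = 3) was itself near 50%, and the intervals of libraries 1 and 3 included it.

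**Figure D5:**
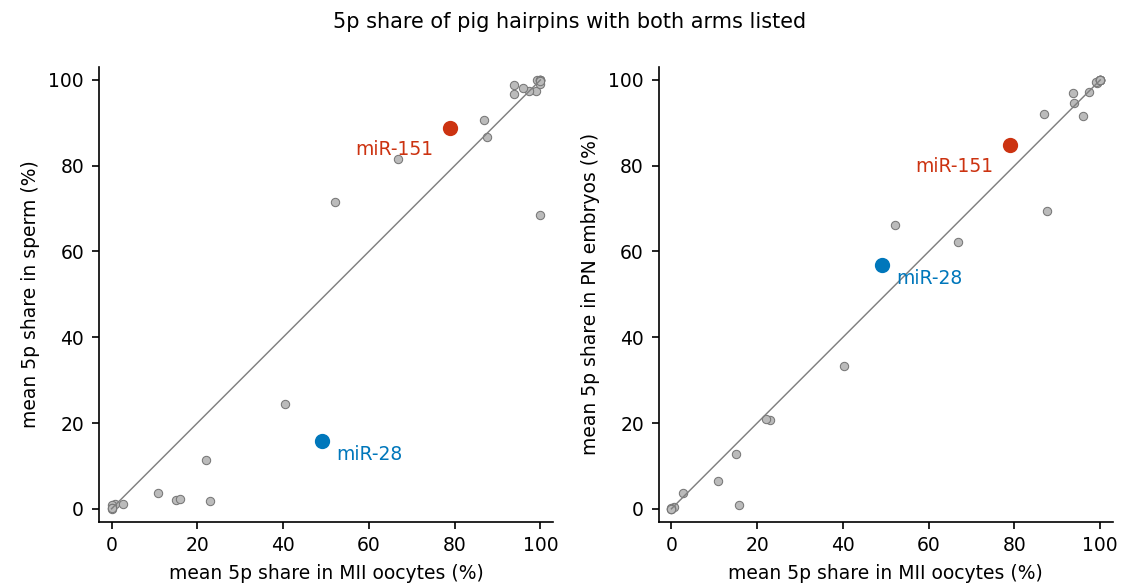
Mean 5p share (%) of the 32 pig hairpins with both arms listed, in MII oocytes against sperm (left) and against PN embryos (right), with the line of equal shares. miR-28 lies far below the line in sperm (49.0% against 15.8%) and near it in PN embryos, and miR-151 lies above it in both panels.

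Names outside the family with the most similar pattern were found by Pearson's r of log2(CPM + 1) with the summed family over the 9 libraries. These were ssc-miR-92a (r = 0.9996), ssc-miR-30b-5p (0.999), ssc-miR-191_R-1 (0.999), cfa-let-7b (0.999) and ssc-miR-132 (0.997). Of the 531 names compared, 78 had an r over 0.99. The libraries fall into sperm and the rest, so r mainly records which names differ between these in the way that miR-151 does, and it is a description only.

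The other intronic miRNAs give a measure of how common such differences were. A list of 47 miRNAs that lie in introns of protein-coding genes in human matched 80 names, of which 58 were tested. In sperm against MII oocytes 28 of them (48.3%) were called higher and 18 (31.0%) lower, beside 42.2% and 40.7% of all names, with a median log2 fold change of 0.70, against 0 for the 587 names of the fit. In sperm against PN embryos 27 (46.6%) were higher and 21 (36.2%) lower, beside 38.8% and 47.4% of all names (median 0.68, against -0.52). In PN embryos against MII oocytes 2 (3.45%) were higher and 0 lower, beside 11.2% and 1.70% (median 0.02, against 0.08). The 4 most abundant names of the list differed among themselves. ssc-miR-128 was lower in sperm, at 6609 ± 443 CPM against 67416 ± 4571 CPM in MII oocytes, and ssc-miR-191_R-1 was higher (69513 ± 1226 against 3973 ± 245 CPM; SD, n = 3 each). ssc-miR-26a was higher in sperm, at 24159 ± 166 against 7618 ± 699 CPM. ssc-miR-103 was not called, at 17569 ± 896 against 11178 ± 18.7 CPM (SD, n = 3 each).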

How the data were processed

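The deposited values were expected counts for each miRNA name, made by the authors, called raw in the column headers and not normalized. Fractions occurred in 19.8% of the values over 0. The aligner, miRNA caller and count filter were not given in the sources used here, nor was the meaning of the name suffixes. The table had 1420 rows, with 0 further columns of sample values. Rows of a repeated name held identical values and were summed. Of the 14 member names, 2 had counts in proportion to each other (shares of their sum equal to 3 decimals).

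Counts were rounded to whole numbers and fitted with edgeR 4.0.16 in R 4.3.3 (quasi-likelihood test, TMM, filterByExpr with a minimum count of 10, group as the factor, all 9 libraries, q adjusted within each of 3 contrasts). Standard errors were derived from each F statistic. The 587 names kept held 99.8% of the counts. limma 3.58.1 was used for arm ratios, with a pseudocount of 0.5 counts. Exact permutation tests and Wilson intervals were computed in SciPy 1.17.1. The scripts were tested on simulated data. The members and lists were chosen with earlier results of these data known. Every member with at least 10 counts in any library is named, beside the 5 names most like the summed family (mean level 10 CPM or more) and the 4 most abundant intronic miRNAs. No table of miRNA sequences was used here, so names were not grouped by seed. Replicates of a group differed by more than sampling noise (chi-square per degree of freedom 2.20 to 12.7).

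Alternatives were other size factors, library totals, DESeq2 1.42.0, other filters, the 2 groups alone, the replicate number as a block, names summed by arm, proportional rows counted once, q alone, and leaving out each library. Thinning to 289180 counts, the limma test and the ranks of arm shares without each library were added after the data were seen.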

Additional observations from a re-analysis of the deposited data

How the results depend on the processing

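Members called in sperm against MII oocytes and against PN embryos numbered 7 in each and stayed within 6 to 10 and 6 to 10 under every alternative run. In PN embryos against MII oocytes the count was 2. It was 1 with names summed by arm and 1 with proportional rows counted once, since the called names have counts in proportion. It was 3 at q under 0.05 alone, where miR-151-5p was added (edgeR q = 0.0262, from 0.00123 to 0.159 over the alternatives). Leaving out a library at a time gave 2, 7 and 7 members in the 3 contrasts in every fit.

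Of 21 log2 fold changes of members, 19 kept direction and call under every alternative fitted for them, which leaves out the threshold of q alone. That of ssc-miR-28-5p_R-1 in PN embryos against MII oocytes turned to -0.0128 without MII oocyte library 3 and ranged from there to 0.37 (without MII oocyte library 1) when each library was left out. That of cja-miR-151_R+1_1 in sperm against PN embryos fell to 0.929 at equal depth and was no longer called. For cja-miR-151_R+1_2, with counts in proportion, it was 1.03 there and stayed called. At equal depth the 4 miR-151 and miR-28 pig names also had lower log2 fold changes in both sperm contrasts, as did the median of all names. The filter and TMM factors were set anew in that fit, so depth alone was not tested. With DESeq2 size factors the median of all names in sperm against PN embryos moved from -0.52 to -0.32, and with library totals to -0.66. The direction of the members was the same under all 3 scalings.

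Same-numbered libraries did not deviate together (mean correlation -0.0422, -0.11 and 0.0171 in the 3 contrasts), and 0, 0 and 2 of 3 libraries correlated best with their own number. With the replicate block, 2, 7 and 7 members were called, and the sign-flip p of the shares, whose smallest value is 0.25, was 0.25 to 1.

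Differences in the 5p share, in percentage points, kept their direction when each library was left out, except that of miR-708, which was 0 without MII oocyte library 3. For miR-28 in PN embryos against MII oocytes the difference was 0.659 points without that library, against 7.79 with it. For miR-28 in sperm against MII oocytes it ranged from -40.4 points without that library to -27.8 without MII oocyte library 1, against -33.3 with all. The limma ratios, on the log2 scale, put 3 of the comparisons at q under 0.05: 1.08 for miR-151 and -2.36 for miR-28 in sperm against MII oocytes, and -2.82 for miR-28 in sperm against PN embryos. On TMM-adjusted library sizes the summed level moved by more than 1 SD in 3 cases: to 4359 CPM for miR-151 and 5073 CPM for the family in PN embryos, and to 14870 CPM for miR-28 in sperm. Each arm was listed under 1 pig name, so no share of variants within an arm and no alternative based on the most abundant name could be computed.

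The limits are the depth of the MII oocyte libraries, the irregular listing of low counts, and 3 libraries a group, with which no permutation test can reach 0.05.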

Other observations

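MII oocyte library 3 had the lowest 5p share of its group for miR-151 (75.0%) and miR-28 (34.8%). For miR-708 the share there was 95.5%, on 6 counts of the 3p arm. In libraries 1 and 2 this arm was listed at 0, which may stand for up to 5 counts, so their order is not settled. Of the 32 pig hairpins with both arms listed, 12 had libraries tied for the lowest 5p share of the group. Among the other 20 it was in library 1 for 5, in library 2 for 6 and in library 3 for 9. The level of ssc-miR-28-3p_R+1 varied by 14.1 CPM (SD) around 11971 CPM in sperm, while that of the 5p arm varied by 195 CPM around 2243 CPM. On the 19616, 20776 and 29387 counts of the 3p arm, counting error alone exceeds 14.1 CPM. So close an agreement of 3 libraries is therefore not a measure of how steady the level was.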
